A study of Mus musculus with 16 samples.

Results

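The 8 genes described here encode surface proteins of hematopoietic stem and leukemia cells and secreted proteins of their niche: Angpt1, Thbs1, Cxcr4, Itga4, Cd44, Cd34, Thy1 and Cd47. They were chosen by name, as the rows of the deposited count table whose Ensembl identifiers map to these mouse symbols. They are 8 of 53801 genes in the table, and all 8 were among the 13774 genes with enough counts to be tested. The data are RNA sequencing of a mouse leukemia cell line that carries the MLL-AF9 fusion, grown in RPMI with serum, interleukin-3 and stem cell factor. The 16 libraries form 4 groups of 4: control cells at 20% oxygen, MCT4-KO cells at 20% oxygen, control cells at 2% oxygen and MCT4-KO cells at 2% oxygen. MCT4 is the lactate and proton exporter encoded by Slc16a3, and KO stands for its knockout. Per the labels Cas9, the nuclease that cuts at a guide RNA, was induced with 4-OHT (4-hydroxytamoxifen) in every group, controls included. The control guide, the number of clones and whether replicates were separate cultures are not stated in the labels, so the p-values measure the spread between libraries, which may be technical.

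Hematopoietic stem cells and many leukemia cells are held in the bone marrow by contacts with stromal and endothelial cells. CXCR4 binds the stromal chemokine CXCL12, the integrin subunit encoded by Itga4 pairs with a beta subunit to bind VCAM1 and fibronectin, and CD44 binds hyaluronan. Angiopoietin 1 activates the TIE2 receptor (Tek), thrombospondin 1 is a secreted matrix protein that binds CD36 and CD47, and CD47 on a cell's surface restrains macrophages through SIRPA. The marrow is a low-oxygen tissue.

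The libraries held 21192151 to 28871413 counts. Levels are in CPM, counts scaled to a common library size. Where a library had no count of a gene, up to 3 counts (0.123 CPM on average) remain possible from counting error alone. Slc16a3 itself averaged 209.9 ± 23.0 CPM (SD, n = 4 in this and every later group) in the control libraries at 20% oxygen and 79.9 ± 11.1 CPM in the MCT4-KO libraries, and 812 ± 23.4 and 365 ± 5.83 CPM at 2% oxygen. The knockout libraries thus kept part of the transcript. Control replicate 4 at 2% oxygen stood apart from its group, with a chi-square per gene of 8.33 to 12.4 against the other 3, which differed among themselves by 2.52 to 3.31. Pairs of control libraries at 20% oxygen differed by 3.47 to 8.95, of MCT4-KO libraries at 20% by 2.47 to 7.48 and of MCT4-KO libraries at 2% by 1.76 to 2.77. Of 10 myeloid markers 9 or 10 reached 1 CPM in each group. Their summed level was 3709 to 4057 CPM in control and 4003 to 4271 in MCT4-KO libraries at 20% oxygen, and 7521 to 7897 and 7184 to 7604 CPM at 2% oxygen. The share of counts from mitochondrial genes was 0.605% to 0.984%, 0.645% to 0.801%, 0.241% to 0.338% and 0.33% to 0.413% in the same order. The summed level and this share moved with oxygen, and their part in the oxygen results was not tested. The sum did not stand for the whole list. By the test given below, 4 of the 10 markers were higher and 6 lower at 2% oxygen in control cells. In MCT4-KO cells 4 were higher and 4 lower. Of all tested genes 78.3% and 76.4% were called in these comparisons. The marker Elane alone averaged 693 CPM at 20% and 3794 CPM at 2% oxygen in control cells. In bulk RNA, fewer cells that express a gene and less of its RNA per cell cannot be told apart.

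At 2% oxygen the stem cell surface genes Cd34 and Thy1, the homing and adhesion receptors Cxcr4 and Cd44, and the ligand Angpt1 were higher, and Thbs1, Itga4 and Cd47 were lower, in both genotypes. In MCT4-KO cells Thy1 was higher than in control cells at either oxygen level. At 2% oxygen Cd34, Angpt1 and Cd47 were also lower and Thbs1 higher in MCT4-KO cells. Itga4 was called higher there, and that call was lost when certain single libraries were left out. A gene was called when its Benjamini-Hochberg adjusted p over all tested genes, from edgeR's quasi-likelihood F-test, was under 0.05. Of the 8 members, 8 were called for 2% against 20% oxygen in control cells, 5 higher and 3 lower, where 78.3% of all tested genes were called. The same 5 were higher and the same 3 lower in MCT4-KO cells, where 76.4% of all genes were called. A count of 8 of 8 is therefore close to what any expressed gene showed. The members' median absolute log2 difference was 1.26 in control cells and 1.03 in MCT4-KO cells, against 0.462 and 0.415 over all tested genes, a description only, since the choice of the members can set it.

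The knockout comparison called fewer members. At 20% oxygen 3 of 8 were called, 2 higher and 1 lower, where 9.76% of all genes were called. At 2% oxygen 6 of 8 were called, 3 higher and 3 lower, where 38.4% of all genes were called. The interaction, which tests whether the oxygen difference itself was another size in MCT4-KO cells, was called for 3 of 8, Angpt1, Thbs1 and Cd34, where 22.9% of all genes were called. Each group enters more than 1 of these comparisons, so the knockout and oxygen values share libraries and are given side by side without a test of their likeness.

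**Figure D1:**
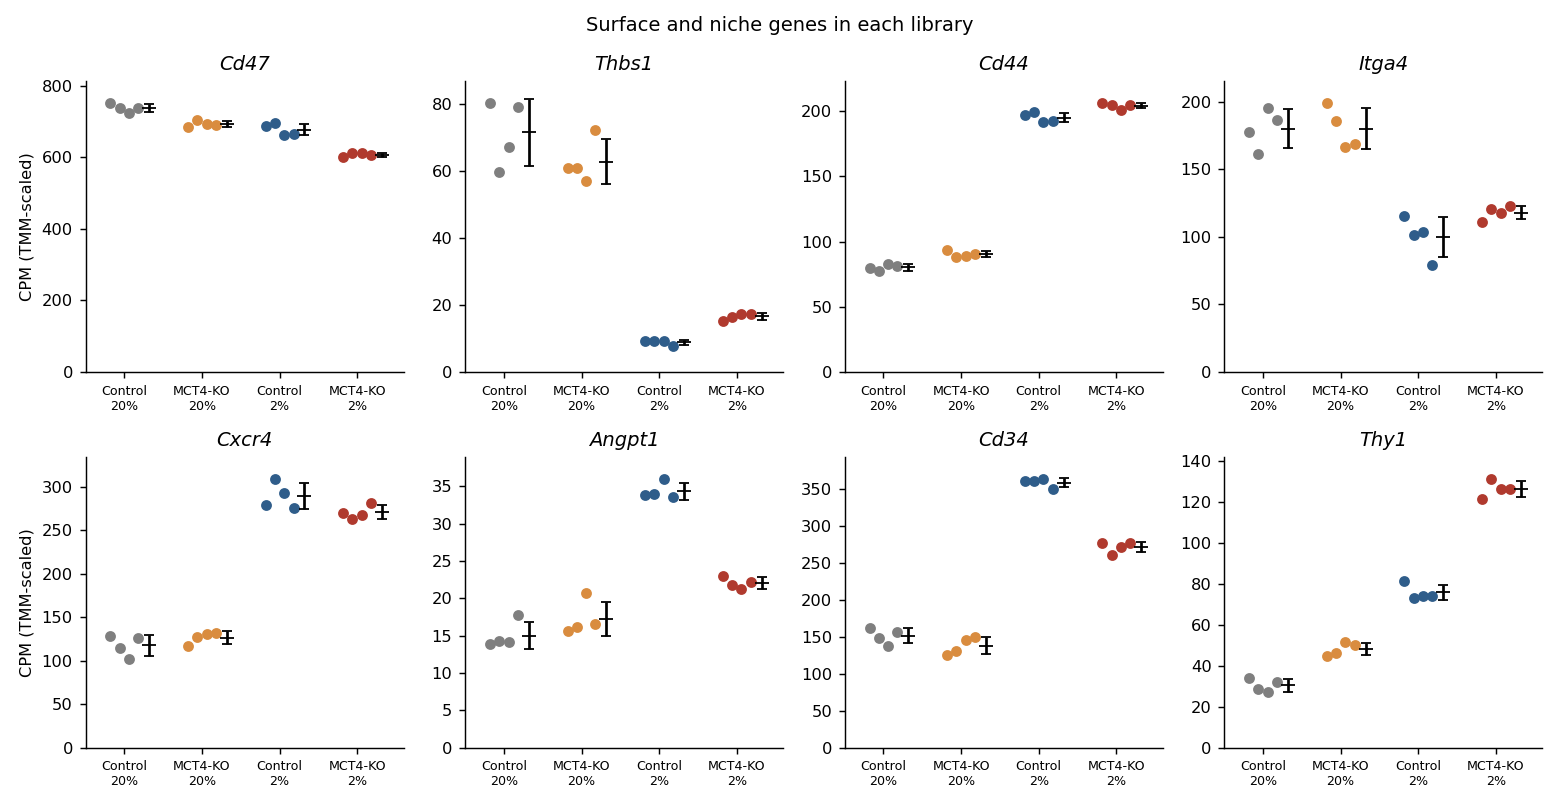
Level of each of the 8 genes in CPM (linear axis from 0) in the 4 groups; points are libraries and bars are the group mean with its SD (n = 4). The points of the 2% oxygen groups do not overlap those of the 20% oxygen groups of the same genotype in any panel. The share of all tested genes without such an overlap was not counted. For oxygen 78.3% of all tested genes were called in control and 76.4% in MCT4-KO cells. Cd34 and Angpt1 are lower and Thy1 and Thbs1 higher in MCT4-KO than in control libraries at 2% oxygen.

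Both secreted ligands changed with oxygen, in opposite directions, and for both the change was smaller in MCT4-KO cells. Angpt1 (ENSMUSG00000022309, chromosome 15, 42424723 to 42676977, minus strand, GRCm38) encodes angiopoietin 1. In control cells its libraries 1 to 4 held 13.9, 14.2, 14.2 and 17.8 CPM at 20% oxygen and 33.8, 34.0, 36.0 and 33.5 CPM at 2% oxygen. In MCT4-KO cells they held 15.7, 16.2, 20.7 and 16.6 CPM at 20% oxygen and 23.1, 21.8, 21.2 and 22.2 CPM at 2% oxygen. Every control library at 2% oxygen thus lay above every other library of the study, and the MCT4-KO libraries at 2% lay between them and both 20% groups. The rise at 2% oxygen was 2.28-fold in control cells (log2 1.19 ± 0.078 SE, edgeR adjusted p = 1.4e-11). In MCT4-KO cells it was 0.35 ± 0.079 on the log2 scale (edgeR adjusted p = 0.000504), and with libraries scaled by their total counts alone it was 0.17 with an edgeR adjusted p of 0.0636, which ends that call. The interaction was -0.84 ± 0.11 (edgeR adjusted p = 3.71e-05). At 2% oxygen MCT4-KO cells held 1.56-fold less Angpt1 than control cells (log2 -0.64 ± 0.075, edgeR adjusted p = 2.02e-06). At 20% oxygen the groups overlapped and the difference of 0.20 ± 0.082 was not called (edgeR adjusted p = 0.135). Without control replicate 4, the highest of its group, that difference was 0.30 with an edgeR adjusted p of 0.0188.

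The receptor side of Angpt1 was nearly silent in these cells. None of the 5 other angiopoietin and Tie genes examined had enough counts to be tested. Tek, which encodes the angiopoietin receptor, summed to 2 counts over the 4 control libraries at 2% oxygen and to 0 in each other group, and the related Tie1 to between 0 and 2 counts a group. Angpt2, the angiopoietin that can oppose Angpt1, summed to between 6 and 10 counts a group. Of 7 endothelial markers, only Pecam1, which myeloid cells also carry, reached 1 CPM. The list's summed level was 179 to 186 CPM in control and 181 to 187 in MCT4-KO libraries at 20% oxygen, and 267 to 301 and 260.2 to 263 CPM at 2% oxygen, while Cdh5, Kdr and Emcn were at 0 in all 16 libraries. The 8 stromal markers summed to 1.42 to 1.61, 0.97 to 1.40, 2.16 to 2.64 and 1.54 to 1.80 CPM in the same order, with Col1a2, Dcn and Lum at 0 throughout.

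Thbs1 (ENSMUSG00000040152, chromosome 2, 118111876 to 118127133, plus strand) encodes thrombospondin 1 and had the largest oxygen difference of the 8 genes. Control libraries held 80.1, 59.6, 67.1 and 79.1 CPM at 20% oxygen and 9.16, 9.24, 9.19 and 7.68 CPM at 2% oxygen. MCT4-KO libraries held 60.9, 60.9, 57.1 and 72.3 CPM at 20% oxygen and 15.1, 16.5, 17.4 and 17.4 CPM at 2% oxygen. All 8 libraries at 2% oxygen were thus far below all 8 at 20%, and at 2% every MCT4-KO library was above every control library. The fall at 2% oxygen was 8.10-fold in control cells (log2 -3.02 ± 0.10, edgeR adjusted p = 3.19e-16), the 62nd largest of 7023 tested genes with a lower level at 2% oxygen. In MCT4-KO cells it was 3.78-fold (log2 -1.92 ± 0.093, edgeR adjusted p = 1.21e-13), and the interaction was 1.10 ± 0.14 (edgeR adjusted p = 3.5e-05). At 2% oxygen MCT4-KO cells held 1.88-fold more Thbs1 than control cells (log2 0.91 ± 0.12, edgeR adjusted p = 7.19e-06), the 113th largest of 6798 tested genes with a higher level in MCT4-KO cells. At 20% oxygen the genotypes overlapped (log2 -0.19 ± 0.080, edgeR adjusted p = 0.156). Without control replicate 2, the lowest of its group, that value was -0.27 with an edgeR adjusted p of 0.0273, and without MCT4-KO replicate 4, the highest of its group, it was -0.26 with 0.0446. With no filter on low counts it was -0.18 with 0.0382.

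Of 8 further genes for thrombospondins and their receptors, 4 were tested. At 2% oxygen 2 were higher and 1 lower in control cells, where 78.3% of all tested genes were called. In MCT4-KO cells 2 were higher and 2 lower, where 76.4% of all tested genes were called. The knockout called 1 lower at 20% oxygen, where 9.76% of all tested genes were called. At 2% it called 1 higher and 1 lower, where 38.4% of all tested genes were called. Sdc4, a heparan sulfate proteoglycan, rose from 3.79 ± 0.89 to 30.1 ± 2.28 CPM at 2% oxygen in control cells and at 2% oxygen was below that in MCT4-KO cells, with 17.4 ± 1.41 CPM (log2 -0.79 ± 0.083, edgeR adjusted p = 5.79e-07). Calr, which encodes calreticulin, averaged 1251 ± 45.7 CPM in control libraries at 2% oxygen and 1447 ± 33.4 CPM in MCT4-KO libraries (log2 0.21 ± 0.033, edgeR adjusted p = 5.11e-05). The thrombospondin receptor Cd36 summed to 0 or 1 count a group. Thbs1 is also abundant in megakaryocytes and platelets. Of 8 markers of those cells, summed levels were 1.82 to 2.70 CPM in control and 1.37 to 2.31 in MCT4-KO libraries at 20% oxygen, and 12.5 to 16.4 and 11.3 to 12.4 CPM at 2% oxygen. No marker reached a mean of 1 CPM at 20% oxygen and 3 of 8 did at 2%, led by Ppbp at 8.67 CPM in control cells, while Gp1bb was at 0 throughout. Of 5 tested markers 3 were higher and 1 lower at 2% oxygen in control cells, where 78.3% of all tested genes were called. In MCT4-KO cells 3 were higher and 0 lower, where 76.4% of all tested genes were called. Gp1ba averaged 0.70 CPM at 20% and 0.36 CPM at 2% oxygen in control cells. The summed level moved up with 2% oxygen where Thbs1 moved down, and its part in the result was not tested.

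Among the receptors, Cxcr4 and Cd44 rose with low oxygen 2.45-fold and 2.43-fold in control cells, and Itga4 fell. RefSeq promoter windows of GRCm38.p6 (the 250 bases before a start site) were given for 5 members: Cxcr4, Cd44, Cd47, Cd34 and Itga4. They were searched on both strands for ACGTG and GCGTG, the core letters of the hypoxia response element. At least 1 core was found in 38.6% of all 32851 windows. Cxcr4 and Cd44 are printed below because they are the pair of members that rose at 2% oxygen and have a core, and Cd47 because it has a core and was lower at 2%. The pieces are chr1:128592300-128592549 on the minus strand for Cxcr4, chr2:102901666-102901915 on the minus strand for Cd44 and chr16:49855404-49855632 on the plus strand for Cd47. Letters run 5′ to 3′ on the gene's own strand, and capitals mark the cores, where CACGT is ACGTG on the opposite strand.
Cxcr4: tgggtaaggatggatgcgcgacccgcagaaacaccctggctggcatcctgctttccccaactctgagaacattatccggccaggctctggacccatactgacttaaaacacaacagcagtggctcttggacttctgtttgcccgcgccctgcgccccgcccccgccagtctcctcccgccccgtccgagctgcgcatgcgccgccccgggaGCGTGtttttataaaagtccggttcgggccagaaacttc
Cd44: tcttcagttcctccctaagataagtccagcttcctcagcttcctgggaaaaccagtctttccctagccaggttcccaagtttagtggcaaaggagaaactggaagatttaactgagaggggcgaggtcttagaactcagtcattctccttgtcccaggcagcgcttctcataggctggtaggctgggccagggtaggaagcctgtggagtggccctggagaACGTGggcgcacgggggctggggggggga
Cd47: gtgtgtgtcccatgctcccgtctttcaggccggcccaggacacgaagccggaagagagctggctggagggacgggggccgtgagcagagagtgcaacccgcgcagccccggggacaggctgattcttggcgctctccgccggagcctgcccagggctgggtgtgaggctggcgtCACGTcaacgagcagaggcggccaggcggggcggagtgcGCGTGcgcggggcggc
The Cxcr4 core lay 39 bases before the start, in a window of a GC content at which 62.4% of windows hold a core. The Cd44 core lay 29 bases before the start, against 40% of windows of like GC content. Cd47 had 3 cores, at 76, 37 and 18 bases before the start, against 68.1% of windows of like GC content with at least 1, and the last of them lies past the end of the piece printed. A further Cd47 window, for another start, put the cores at 83, 44 and 25 bases. Both windows lie inside the annotated span of Cd47, which begins at 49800533, so these distances are not from the first base of the gene. The windows of Cd34, which rose at 2% oxygen, and of Itga4, which fell, held neither set of letters, and 23.7% and 62.4% of windows of their GC content hold one. A match is a string of letters and not a shown binding site.

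Cxcr4 (ENSMUSG00000045382, chromosome 1, 128588199 to 128592293, minus strand) encodes the CXCL12 receptor that guides stem cells to the marrow. Control libraries held 128, 115, 102 and 127 CPM at 20% oxygen and 279.5, 309, 293 and 276 CPM at 2% oxygen. MCT4-KO libraries held 117, 127, 131 and 132 CPM at 20% oxygen and 270.2, 263, 268 and 282 CPM at 2% oxygen. The genotypes overlapped at both oxygen levels, and the oxygen levels did not overlap in either genotype. The rise at 2% oxygen was 1.29 ± 0.058 on the log2 scale in control cells (edgeR adjusted p = 2.7e-14) and 1.09 ± 0.058 in MCT4-KO cells (edgeR adjusted p = 4.78e-13). The knockout difference was 0.10 ± 0.058 at 20% oxygen (edgeR adjusted p = 0.304) and -0.095 ± 0.056 at 2% (edgeR adjusted p = 0.193), neither called. The interaction was -0.20 ± 0.081 (edgeR adjusted p = 0.0844), and it was called at -0.24 when control replicate 1, control replicate 4 or MCT4-KO replicate 1 at 20% oxygen was left out (edgeR adjusted p = 0.036, 0.0463 and 0.0395) and at -0.20 with no filter on low counts (0.0279).

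The chemokine that CXCR4 binds was not a product of these cells at this depth: Cxcl12 summed to between 0 and 2 counts a group. Ackr3, the other CXCL12 receptor, had no count in any of the 16 libraries. Of 16 chemokine receptors and regulators 10 were tested. At 2% oxygen 7 were higher and 0 lower in control cells, where 78.3% of all tested genes were called. In MCT4-KO cells 7 were higher and 2 lower, where 76.4% of all tested genes were called. Scaling by total counts made these splits 7 to 3 and 6 to 4. The knockout called 3 higher at 20% oxygen, where 9.76% of all tested genes were called. At 2% it called 4 lower, where 38.4% of all tested genes were called, or 3 lower with total-count scaling. Gnai2, a G protein subunit through which chemokine receptors signal, rose from 459 ± 13.7 to 973 ± 30.7 CPM at 2% oxygen in control cells (log2 1.08 ± 0.032, edgeR adjusted p = 2.38e-17). Arrb1, a beta-arrestin that takes part in receptor desensitization, rose from 59.8 ± 3.31 to 293 ± 5.08 CPM and was lower in MCT4-KO cells at 2% oxygen, at 234 ± 2.62 CPM (log2 -0.32 ± 0.033, edgeR adjusted p = 4.15e-07). Cxcr2, a receptor of neutrophils, rose from 1.62 ± 0.071 to 21.2 ± 2.63 CPM in control cells.

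Itga4 (ENSMUSG00000027009, chromosome 2, 79255426 to 79333123, plus strand) encodes the alpha subunit of the VCAM1-binding integrin VLA-4. Control libraries held 178, 161, 195.5 and 186 CPM at 20% oxygen and 116, 101, 103 and 79.5 CPM at 2% oxygen. MCT4-KO libraries held 199, 186, 166 and 169 CPM at 20% oxygen and 111, 121, 117 and 123 CPM at 2% oxygen. Every library at 2% oxygen was below every library at 20%, and control replicate 4 at 2% oxygen was the lowest of all 16. The fall was 1.80-fold in control cells (log2 -0.85 ± 0.083, edgeR adjusted p = 7.75e-09), or -0.76 on the log2 scale without that library, and in MCT4-KO cells it was -0.61 ± 0.081 (edgeR adjusted p = 9.56e-07). At 20% oxygen the knockout difference was -0.0023 ± 0.080 (edgeR adjusted p = 0.991). At 2% oxygen Itga4 was called higher in MCT4-KO cells, by 0.24 ± 0.084 (edgeR adjusted p = 0.0295), although the groups overlapped. The call was lost without control replicate 4, where the value was 0.14 (edgeR adjusted p = 0.1), and without MCT4-KO replicate 2, 3 or 4 at 2% oxygen, where it was 0.23, 0.24 and 0.22 (0.0634, 0.0546 and 0.0752). The interaction of 0.24 ± 0.12 was not called (edgeR adjusted p = 0.146), but was with no filter on low counts (0.028) and, at 0.32, without control replicate 1 at 2% oxygen (0.0473).

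The beta subunits that pair with Itga4 went the other way. Itgb7, the beta subunit of the gut-homing integrin that binds MADCAM1, rose from 61.9 ± 2.57 to 292 ± 7.66 CPM at 2% oxygen in control cells (log2 2.24 ± 0.036, edgeR adjusted p = 5.06e-21). In MCT4-KO cells it rose from 54.5 ± 2.05 to 232 ± 4.73 CPM, and it was lower than in control cells at both oxygen levels (log2 -0.18 ± 0.038 at 20% and -0.33 ± 0.034 at 2%, edgeR adjusted p = 0.00358 and 3.66e-07). Itgb1, the shared beta subunit of VLA-4, rose from 309 ± 3.54 to 398 ± 5.13 CPM in control cells (log2 0.37 ± 0.026, edgeR adjusted p = 5.45e-11) and did not pass the test for the knockout. Of 22 integrin subunits and adaptors 18 were tested. At 2% oxygen 10 were higher and 2 lower in each genotype, where 78.3% and 76.4% of all tested genes were called. That direction rested on the scaling, since with total counts alone the split was 6 to 6 in control and 5 to 6 in MCT4-KO cells, while Itgb7 and Itgb1 kept their sign. The knockout called 1 integrin gene higher and 2 lower at 20% oxygen, where 9.76% of all tested genes were called. At 2% it called 3 higher and 6 lower, where 38.4% of all tested genes were called. With total counts alone these integrin counts were 1 and 1, and 3 and 4. Itgal, the alpha subunit of the leukocyte integrin LFA-1, was lower at 2% oxygen as Itga4 was, from 237.5 ± 8.82 to 102 ± 3.86 CPM in control cells, and was higher in MCT4-KO than in control cells at 2%, at 122 ± 2.22 CPM (log2 0.26 ± 0.038, edgeR adjusted p = 2.08e-05). Itgb3, the platelet and matrix integrin subunit, rose in control cells from 4.22 ± 0.54 to 21.4 ± 1.41 CPM.

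**Figure D2:**
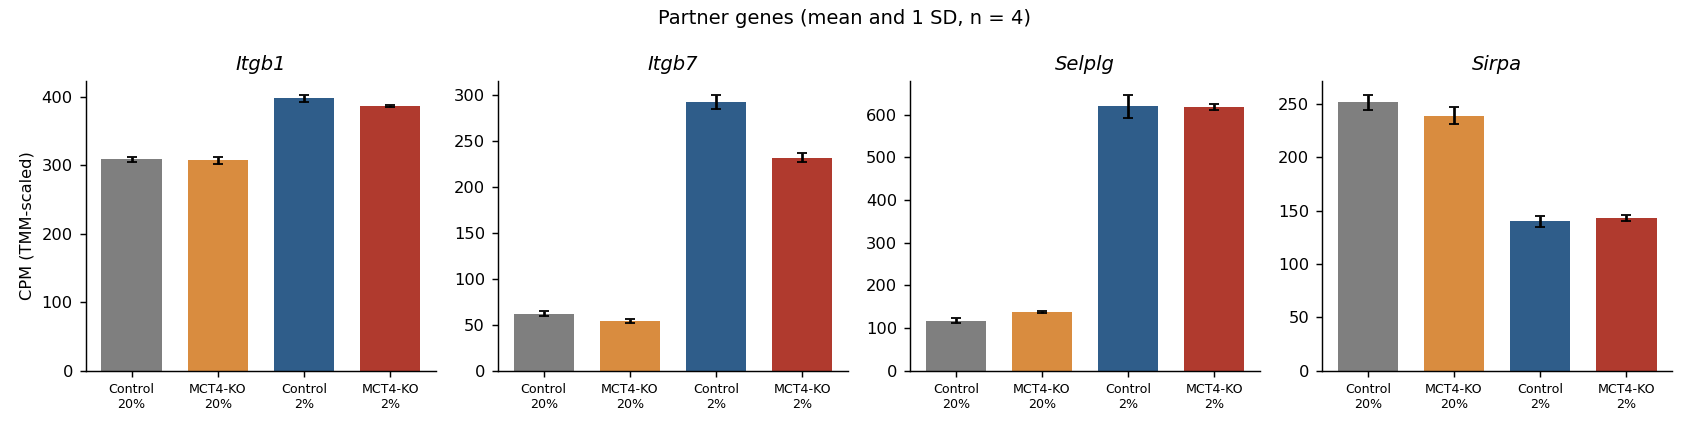
Levels in CPM (linear axis from 0) of 4 partner genes of the members in the 4 groups; bars are group means with 1 SD (n = 4). Itgb7 and Itgb1 are higher at 2% oxygen in both genotypes, as is Selplg, and Sirpa is lower.

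Cd44 (ENSMUSG00000005087, chromosome 2, 102811141 to 102901665, minus strand) encodes the hyaluronan receptor used to mark leukemia stem cells. Control libraries held 79.5, 77.3, 82.9 and 81.0 CPM at 20% oxygen and 197, 199, 191.5 and 193 CPM at 2% oxygen. MCT4-KO libraries held 93.8, 88.1, 89.1 and 90.3 CPM at 20% oxygen and 206, 205, 201 and 205 CPM at 2% oxygen. All MCT4-KO libraries were above all control libraries at each oxygen level, by a small margin, and both 2% groups were far above both 20% groups. The rise at 2% oxygen was 1.28 ± 0.031 on the log2 scale in control cells (edgeR adjusted p = 1.2e-18) and 1.18 ± 0.031 in MCT4-KO cells (edgeR adjusted p = 4.8e-18). The knockout difference was 0.17 ± 0.031 at 20% oxygen (edgeR adjusted p = 0.00135). At 2% it was 0.066 ± 0.030 and not called (edgeR adjusted p = 0.0855), but with total-count scaling it was 0.11 and called (0.00769). The interaction of -0.11 ± 0.043 was not called by edgeR (adjusted p = 0.0842) and was by DESeq2 (0.0498).

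Of 18 further genes of CD44 and hyaluronan biology 13 were tested. At 2% oxygen 9 were higher and 3 lower in control cells, where 78.3% of all tested genes were called. In MCT4-KO cells 7 were higher and 3 lower, where 76.4% of all tested genes were called. With total-count scaling the split was 6 to 4 in both. The knockout called 3 lower and 0 higher at 20% oxygen, where 9.76% of all tested genes were called. At 2% it called 3 higher and 2 lower, where 38.4% of all tested genes were called. Adam17, a protease that can shed surface proteins, rose from 185 ± 4.81 to 384.5 ± 10.8 CPM at 2% oxygen in control cells and was lower in MCT4-KO cells at 2%, at 309.7 ± 7.03 CPM (log2 -0.31 ± 0.030, edgeR adjusted p = 1.94e-07). Ezr, which encodes the linker ezrin between CD44 and actin, averaged 122.5 ± 5.15 CPM in control libraries at 2% oxygen and 163 ± 4.10 CPM in MCT4-KO libraries (log2 0.41 ± 0.039, edgeR adjusted p = 1.59e-07). Spp1, which encodes the CD44 ligand osteopontin, was lower in MCT4-KO cells at 20% oxygen, at 10.75 ± 1.89 against 20.3 ± 2.34 CPM (log2 -0.92 ± 0.11, edgeR adjusted p = 1.95e-05). Hmmr, another hyaluronan receptor, was called higher at 2% oxygen in control cells by 0.20 ± 0.052 (edgeR adjusted p = 0.00156), with overlapping groups, and was at -0.0029 with total-count scaling.

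**Figure D3:**
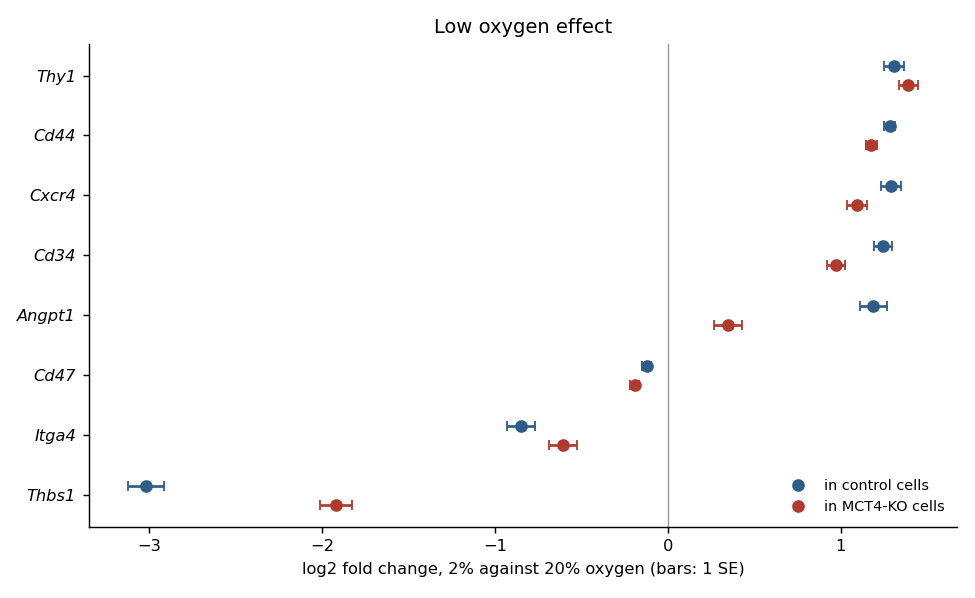
Log2 difference of 2% against 20% oxygen for the 8 genes in control and in MCT4-KO cells, with bars of 1 SE from edgeR. Cd34, Thy1, Cd44, Cxcr4 and Angpt1 lie above 0 and Cd47, Itga4 and Thbs1 below 0 in both genotypes, and the genotypes are furthest apart for Thbs1 and Angpt1.

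The stem cell surface genes Cd34 and Thy1 both rose with low oxygen and, at 2% oxygen, differed in opposite directions with the knockout. Cd34 (ENSMUSG00000016494, chromosome 1, 194938819 to 194961279, plus strand) encodes the sialomucin that marks stem and progenitor cells. Control libraries held 163, 149, 138 and 157 CPM at 20% oxygen and 361, 362, 364 and 350.2 CPM at 2% oxygen. MCT4-KO libraries held 126, 131, 147 and 150.1 CPM at 20% oxygen and 277, 262, 272 and 277 CPM at 2% oxygen. The genotypes overlapped at 20% oxygen, and at 2% every MCT4-KO library was below every control library. The rise at 2% oxygen was 2.37-fold in control cells (log2 1.24 ± 0.051, edgeR adjusted p = 7.15e-15) and 0.97 ± 0.051 on the log2 scale in MCT4-KO cells (edgeR adjusted p = 5e-13). The interaction of -0.27 ± 0.072 was called (edgeR adjusted p = 0.0106). The knockout difference of Cd34 at 2% oxygen was -0.40 ± 0.050 (edgeR adjusted p = 4.07e-06). At 20% the difference of -0.13 ± 0.052 was not called (edgeR adjusted p = 0.119), and it was -0.17 and called without control replicate 3 (0.042) or MCT4-KO replicate 4 (0.0488).

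Thy1 (ENSMUSG00000032011, chromosome 9, 44043384 to 44048579, plus strand) encodes the GPI-anchored protein CD90, used in mouse to mark stem cells at a low level and T cells at a high level. Control libraries held 34.1, 28.7, 27.2 and 32.3 CPM at 20% oxygen and 81.5, 73.2, 74.0 and 74.2 CPM at 2% oxygen. MCT4-KO libraries held 44.8, 46.4, 51.5 and 49.9 CPM at 20% oxygen and 121.5, 131, 126 and 126 CPM at 2% oxygen. The 4 groups did not overlap and kept 1 order, from control at 20% through MCT4-KO at 20% and control at 2% to MCT4-KO at 2%. Thy1 was 1.58-fold higher in MCT4-KO than in control cells at 20% oxygen (log2 0.66 ± 0.061, edgeR adjusted p = 1.02e-06) and 1.67-fold at 2% (log2 0.74 ± 0.055, edgeR adjusted p = 9.55e-09). These differences ranked 202nd of 6642 and 201st of 6798 tested genes with a higher level in MCT4-KO cells. The oxygen rise was 2.48-fold in control cells (log2 1.31 ± 0.060, edgeR adjusted p = 4.24e-14) and 1.39 ± 0.056 on the log2 scale in MCT4-KO cells (edgeR adjusted p = 6.19e-15), and the interaction of 0.082 ± 0.082 was not called (edgeR adjusted p = 0.516). Of 8 T cell markers only Lck reached 1 CPM, with means of 33.1, 30.1, 13.5 and 10.7 CPM in control and MCT4-KO cells at 20% and then at 2% oxygen, and Cd3e and Cd4 were at 0 in all 16 libraries. Nearly all of the list's summed level came from Lck. The sum was 30.9 to 37.5, 28.7 to 32.3, 12.6 to 14.7 and 10.3 to 11.9 CPM in that order. It was lower at 2% oxygen where Thy1 was higher, and its part in the Thy1 result was not tested.

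Around Cd34, 10 genes for sialomucins and selectin ligands were examined and 8 tested. In each genotype 6 were higher and 2 lower at 2% oxygen, where 78.3% and 76.4% of all tested genes were called. With total-count scaling the split was 4 to 3 in control and 4 to 2 in MCT4-KO cells. The knockout called 3 higher at 20% oxygen, where 9.76% of all tested genes were called. At 2% it called 2 higher and 3 lower, where 38.4% of all tested genes were called, or 2 and 2 with total-count scaling. Selplg, which encodes the selectin ligand PSGL-1, rose from 117 ± 6.24 to 619.5 ± 26.96 CPM at 2% oxygen in control cells (log2 2.40 ± 0.039, edgeR adjusted p = 5.06e-21). It was higher in MCT4-KO cells at 20% oxygen by 0.22 ± 0.039 on the log2 scale (edgeR adjusted p = 0.00088) and not called at 2% (edgeR adjusted p = 0.953), with an interaction of -0.23 ± 0.053 (edgeR adjusted p = 0.00446). Gcnt1, an enzyme that builds selectin-binding glycans, rose from 8.37 ± 0.25 to 19.6 ± 0.81 CPM at 2% oxygen in control cells.

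The 23 other stem and progenitor surface markers did not move as one. Of 14 tested, 4 were higher and 7 lower at 2% oxygen in control cells. In MCT4-KO cells 5 were higher and 7 lower. Total-count scaling made these splits 4 to 9 and 3 to 8. Over all tested genes 78.3% were called in control cells, 5332 higher and 5458 lower, and 76.4% in MCT4-KO cells, 5189 higher and 5331 lower. The tested markers were thus called about as often as any tested gene. Prom1, which encodes the marker CD133, fell from 8.08 ± 0.49 to 2.27 ± 0.14 CPM at 2% oxygen in control cells (log2 -1.83 ± 0.084, edgeR adjusted p = 3.83e-14), and at 20% oxygen it was higher in MCT4-KO cells, at 11.4 ± 0.31 CPM (log2 0.50 ± 0.064, edgeR adjusted p = 4.28e-05). Adgrg1, an adhesion receptor of stem cells also called GPR56, rose from 116 ± 4.42 to 217 ± 15.4 CPM at 2% oxygen in control cells and was lower in MCT4-KO cells at 2%, at 177.5 ± 5.19 CPM (log2 -0.29 ± 0.047, edgeR adjusted p = 7.15e-05), as Cd34 was. Cd48, a marker of progenitors past the stem cell stage, fell from 16.9 ± 0.87 to 10.5 ± 0.26 CPM in control cells. The knockout called 4 higher and 1 lower at 20% oxygen, where 9.76% of all tested genes were called. At 2% it called 2 higher and 4 lower, where 38.4% of all tested genes were called. With total-count scaling the split at 2% was 4 higher and 3 lower, so its direction rested on the scaling.

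Cd47 (ENSMUSG00000055447, chromosome 16, 49800533 to 49915010, plus strand) encodes the surface protein that restrains macrophages, and it varied least. Control libraries held 750.2, 736, 723.5 and 737 CPM at 20% oxygen and 686, 694, 663 and 665 CPM at 2% oxygen. MCT4-KO libraries held 684, 705, 691.5 and 690.1 CPM at 20% oxygen and 599, 611, 610.5 and 606 CPM at 2% oxygen. Control libraries at 20% oxygen were the highest and MCT4-KO libraries at 2% the lowest, while the other groups overlapped each other. The oxygen difference was -0.12 ± 0.027 on the log2 scale in control cells (edgeR adjusted p = 0.000348) and -0.19 ± 0.027 in MCT4-KO cells (edgeR adjusted p = 1.79e-06), and with total-count scaling, which moved the median of all genes to -0.22 and -0.19, these were -0.33 and -0.37. The knockout difference was -0.16 ± 0.027 at 2% oxygen (edgeR adjusted p = 0.000105). At 20% it was -0.089 ± 0.027 (edgeR adjusted p = 0.0394), a call lost in 16 of 24 alternatives, with values from -0.097 to -0.076 and adjusted p from 0.000735 to 0.245. Among these were total-count scaling, no filter on low counts, a fit of the compared groups only, and the omission of any MCT4-KO library, of control replicate 1, 2 or 4 at 20% oxygen or of control replicate 3 at 2%. The interaction of -0.069 ± 0.038 was not called (edgeR adjusted p = 0.202).

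On the receptor side of CD47, Sirpa, the macrophage and myeloid receptor that CD47 engages, fell from 251.5 ± 7.02 to 140.1 ± 4.98 CPM at 2% oxygen in control cells (log2 -0.84 ± 0.035, edgeR adjusted p = 6.67e-15) and from 239 ± 8.38 to 143 ± 3.24 CPM in MCT4-KO cells (log2 -0.74 ± 0.035, edgeR adjusted p = 6.87e-14). The knockout was not called for Sirpa at 20% or 2% oxygen (edgeR adjusted p = 0.195 and 0.533). Cd24a, another surface protein reported to restrain macrophages, rose from 232 ± 10.2 to 387 ± 11.0 CPM in control cells. Of 7 genes listed for that side, with Cd24a counted among them, 5 were tested. At 2% oxygen 2 were higher and 3 lower in each genotype, where 78.3% and 76.4% of all tested genes were called. With total-count scaling 1 was higher and 3 lower. The knockout called 1 higher at 20% oxygen and 2 higher at 2%, where 9.76% and 38.4% of all tested genes were called.

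The gene groups around the members had these median log2 differences over their tested genes for 2% against 20% oxygen in control cells: 1.39 for chemokine receptors, 0.41 for thrombospondins and receptors, 0.40 for CD44 and hyaluronan, 0.36 for sialomucins, 0.19 for integrins, -0.085 for other stem cell markers and -0.24 for the CD47 receptor side. The median was 1.22 over the 8 members and -0.017 over all tested genes. For the knockout at 2% oxygen the group medians were -0.12, -0.12, -0.11, -0.015, -0.028, 0.069 and 0.03 in the same order, against -0.015 over the members and -0.0040 over all tested genes. Over all genes the calls were 5332 higher and 5458 lower for oxygen in control cells and 2671 higher and 2624 lower for the knockout at 2%.

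**Figure D4:**
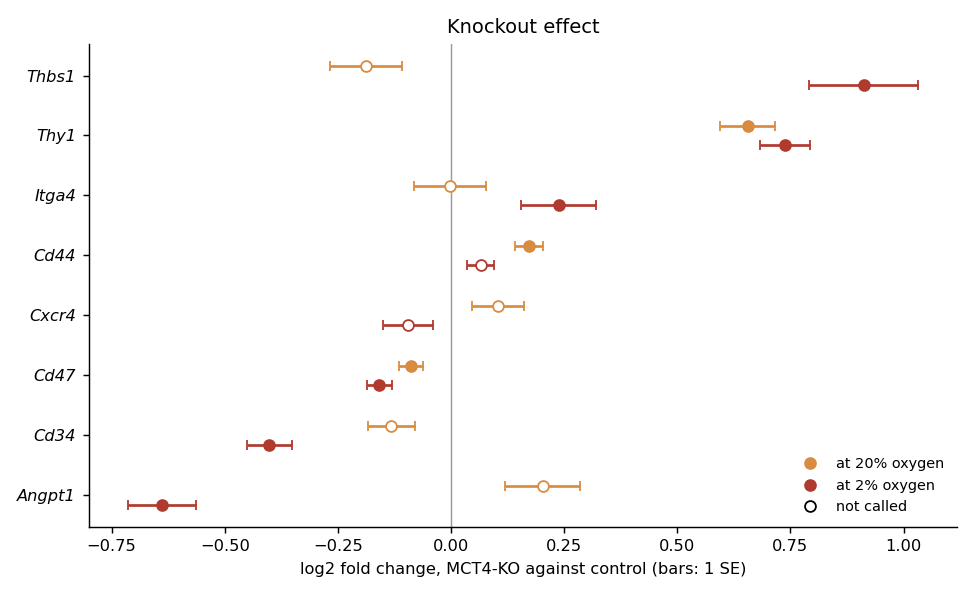
Log2 difference of MCT4-KO against control for the 8 genes at 20% and at 2% oxygen, with bars of 1 SE from edgeR; filled points were called and open points were not. Thy1 lies above 0 at both oxygen levels, and at 2% Thbs1 also lies above 0 and Angpt1 and Cd34 below it.

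To compare levels between genes, CPM were divided by the length of each gene's merged exons in kilobases. In control cells at 20% oxygen the order was Cd47 at 117 CPM per kb, Cxcr4 at 65.3, Cd34 at 20.8, then Itga4 at 12.9, Cd44 at 11.8, Thbs1 at 11.8 and Thy1 at 10.2, and last Angpt1 at 2.89. The libraries of neighbours overlapped from Itga4 to Thy1 in level, while all libraries of Itga4 and of Cd44 lay above all those of Thy1, and the other neighbours stood apart. At 2% oxygen Cxcr4 was first, at 160.0 CPM per kb in control and 149.9 in MCT4-KO cells, ahead of Cd47 at 107.9 and 96.7, and Thbs1 was last, at 1.45 and 2.73. Thy1 had rank 5 in control cells at 2% oxygen with 25.3 CPM per kb, behind Cd34 with 49.3 and Cd44 with 28.8. In MCT4-KO cells at 2% it had rank 3 with 42.2, ahead of Cd34 with 37.3 and Cd44 with 30.1. With the length of the longest transcript in place of merged exons, the order of the 4 close genes in control cells at 20% oxygen was Itga4, Thy1, Cd44 and Thbs1. At 2% oxygen that length put Thy1 at 43.6 CPM per kb above Cd44 at 34.8 in control cells, and Cd34 at 88.8 above Thy1 at 72.8 in MCT4-KO cells, so the place of Thy1 among these genes depends on the length used.

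**Figure D5:**
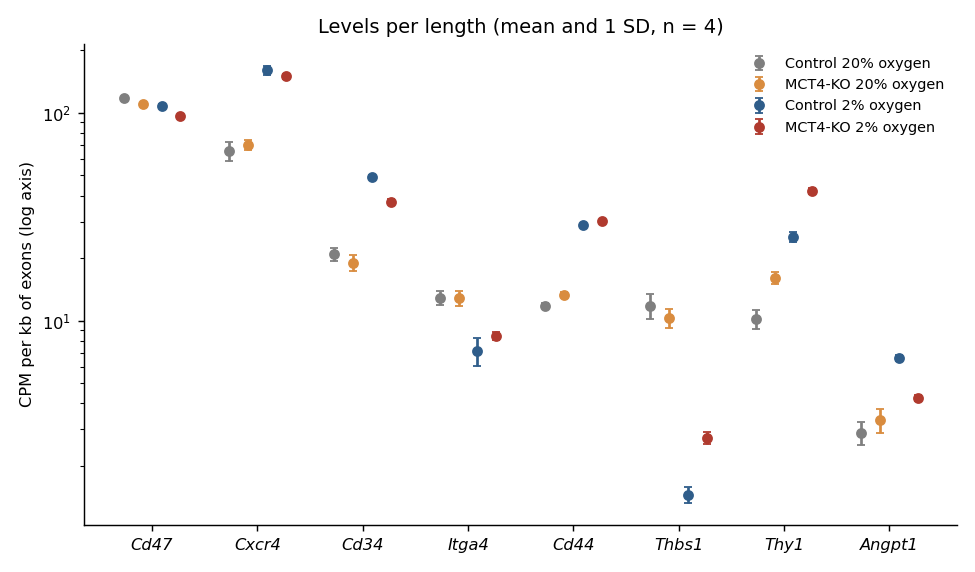
Mean level per kilobase of merged exons (CPM per kb, log axis) of the 8 genes in the 4 groups, with bars of 1 SD (n = 4). Cxcr4 passes Cd47 at 2% oxygen, and Thbs1 is lowest of the 8 there.

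Replicates of a group were closest for Cd47, with an SD within groups of 0.0224 on the log2 scale, and for Cd44 with 0.0331, and widest for Thbs1 with 0.149, Itga4 with 0.145 and Angpt1 with 0.127. As a reference for the oxygen response, 19 of 20 genes known to be induced by hypoxia were higher at 2% oxygen and 1 lower in each genotype. Their median log2 difference was 1.72 in both. Of all tested genes 78.3% were called in control cells, 5332 higher and 5458 lower, and 76.4% in MCT4-KO cells, 5189 higher and 5331 lower. The 1 of the 20 that fell was Vegfa (log2 -0.93 ± 0.044 in control cells, edgeR adjusted p = 5.37e-14), named after its value was seen. Of the 20, 8 were lower and 1 higher in MCT4-KO cells at 20% oxygen, where 9.76% of all tested genes were called. At 2% oxygen 10 were lower and 0 higher, where 38.4% of all tested genes were called. With total-count scaling 7 were lower and 1 higher at 20%, and 7 lower and 0 higher at 2%. Ndrg1, a stress-induced gene of that list, rose from 57.9 ± 2.92 to 312 ± 9.96 CPM in control cells and was at 216 ± 4.77 CPM in MCT4-KO cells at 2% oxygen (log2 -0.53 ± 0.039, edgeR adjusted p = 9.55e-09).

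The genes whose log2 CPM over the 16 libraries was most like each member's were found among 9362 genes of moderate or high level, as a description: all libraries share the oxygen contrast, which sets most of each correlation. For Cd44 they were Elavl2 (Pearson r = 0.998) and Fads2 (0.998), for Cxcr4 F10 (0.997) and Stc2 (0.996), and for Cd34 Pax8 (0.996) and Epm2a (0.995). For Thbs1 they were Slc6a6 (0.995) and 2610005L07Rik (0.993), and for Itga4 Aff1 and Pbrm1 (both 0.994). The remaining members had lower values, Thy1 with Tspan2 (0.985) and Cpox (0.985), Angpt1 with Rapsn (0.981) and Arhgap45 (0.979), and Cd47 with Nrg2 (0.978) and Pld4 (0.966).

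The strand setting of the counting is not given in the sources used here, so reads of overlapping genes on the opposite strand cannot be told apart. Exons of Itga4 overlap those of Cerkl by 1124 bases, those of Angpt1 overlap Gm17473 by 737, those of Thbs1 overlap Gm29233 by 208 and those of Cd34 overlap Gm16897 by 148. The overlapping genes held 84, 8, 0 and 23 counts in all 16 libraries together, in that order. Of the partner genes named, Adam17 shares 311 exon bases with Iah1, which held 29431 counts, so its values are uncertain. Ezr shares 4 bases with Sytl3, which held 689 counts, and Gp1bb shares 1902 bases on its own strand with Sept5, which held 674. Overlapping genes of Ndrg1, Prom1 and Spp1 held at most 38 counts each.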

How the data were processed

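RNA sequencing of 16 libraries was analysed, 4 in each group. Column-purified total RNA underwent poly(A) selection and NEBNext library preparation, per the labels' protocols. The authors deposited 1 table of expected counts per gene (10.1% of values were not whole and were rounded here). The submitters' processing notes name HISAT2, RSEM and mm10, with versions not given in the sources used here.

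Symbols and positions came from GENCODE vM21 (GRCm38), which matched 53620 of 53801 identifiers, and the 181 others held 0.0237% of counts. Promoters came from RefSeq (GRCm38.p6). Levels are CPM on TMM-scaled libraries. With no spike-in described, they are relative abundances. The filterByExpr function of edgeR 4.0.16 (R 4.3.3) kept 13774 genes with 99.94% of counts. The model gave each of the 4 groups its own mean over all 16 libraries, with 12 residual degrees of freedom and a biological coefficient of variation of 4.61%, and edgeR's quasi-likelihood F-test gave 5 comparisons, adjusted by Benjamini-Hochberg. Standard errors are the log2 fold change over the square root of F. Simulated data for the knockout at 20% oxygen, with 13774 genes, recovered 52% of genes changed 1.2-fold and 96% of those changed 1.5-fold, with 3.37% false calls.

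The members and the gene lists were chosen with earlier results of these data known. The text names the members, Slc16a3, direct partners (1 is not reported here), up to 3 called genes per list with the smallest adjusted p, and the 2 genes most like each member. Alternatives were library-size scaling, DESeq2 size factors, other count filters, limma-voom 3.58.1, DESeq2 1.42.0, a fit of the compared groups, a replicate block, each library left out, and transcript length.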

Additional observations from a re-analysis of the deposited data

Results flagged for a closer look

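In groups of 4 libraries, 3 of 32 member groups had a library whose gap to its nearest neighbour exceeded Dixon's critical share of the range, where chance gives about 1 in 20. Angpt1 in control replicate 4 at 20% oxygen was at 17.8 CPM, above the other 3 at 13.9 to 14.2 CPM. Thy1 in control replicate 1 at 2% oxygen was at 81.5 CPM, above the other 3 at 73.2 to 74.2 CPM. Thbs1 in control replicate 4 at 2% oxygen was at 7.68 CPM, below the other 3 at 9.16 to 9.24 CPM, and this is the library that stood apart over all genes.

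The oxygen difference was of another size in MCT4-KO than in control cells for 3 of 8 members, by the interaction in edgeR. Of all tested genes 22.9% were called for the interaction. The interaction was -0.84 for Angpt1 (adjusted p = 3.71e-05), 1.10 for Thbs1 (3.5e-05) and -0.27 for Cd34 (0.0106). Over 23 alternatives it ran from -0.94 to -0.74 for Angpt1, from 1.04 to 1.18 for Thbs1 and from -0.31 to -0.23 for Cd34, with adjusted p of at most 0.000172, 0.000155 and 0.0282.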

How the results depend on the processing

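Of 1071 values of members and Slc16a3 under alternatives, 1027 kept their direction and their side of the threshold, 21 lost the call, 17 gained one and 6 changed sign. The 6 were all Itga4 for the knockout at 20% oxygen, where the value of -0.0023 was not called in any setting: it was 0.010 with total-count scaling, 0.0029 with no filter on low counts, and -0.052 to 0.040 with 1 library left out. Members called ranged from 2 to 4 for the knockout at 20% oxygen and 5 to 7 at 2%. For oxygen they ranged from 8 to 8 in control and 7 to 8 in MCT4-KO cells, and for the interaction from 3 to 5. Over all tested genes the calls ranged from 895 to 1699 and 4573 to 5444 for the knockout. They ranged from 9773 to 11471 and 9588 to 11078 for oxygen and from 2635 to 3339 for the interaction. The number of genes tested also differed between settings, from 11889 to 25871. The interaction called 5 members with no filter on low counts, with Cxcr4 and Itga4 added, where 2964 of 25871 genes were called. The cause was not tested. Same-numbered replicates did not pair: their deviations correlated at -0.064 to 0.115, over 0.1 for 1 of 24 pairs. With the replicate number as a block, 2, 6, 8, 8 and 3 members were called in the order above, Cd47 at 20% oxygen losing its call (edgeR adjusted p = 0.0773). Of all 13774 tested genes 1059, 4984, 10706, 10418 and 2781 were called with that block. Scaling by total counts moved the median of all genes at 2% oxygen to -0.22 in control and -0.19 in MCT4-KO cells. In simulated data 52% of knockout differences of 1.2-fold and 96% of those of 1.5-fold at 20% oxygen were recovered, so differences of that size or less may have been missed.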
